A study of Mus musculus with 4 samples.

Results

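Vomeronasal receptor genes were taken as all genes on the array whose name starts with Vmn1r or Vmn2r. There were 260 of them among 30222 gene names, and 300 of the 39429 probes of the array measured them, 176 probes for 164 Vmn1r genes and 124 probes for 96 Vmn2r genes. Membership follows from the names alone, while the family itself was taken up with earlier results of these data known. RNA came from slices of the lumbar cord (segments L4 to L5) of male mice of the outbred ICR stock, 5 to 6 weeks old. The slices were taken on day 7 after ligation of part of the sciatic nerve (PSL), an injury of the right hindlimb that leaves the animals hypersensitive to touch. All mice carried this ligation. Sham+PSL mice had their adrenals exposed and left in place, ADX+PSL mice were adrenalectomized and drank saline, and each operation was sampled at zeitgeber times ZT10 and ZT22, when plasma glucocorticoids of sham+PSL mice were high and low. There was 1 array for each of the 4 conditions, so no test between conditions was made, and the number of mice behind each RNA is not given in the sources used here.

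Vomeronasal receptors are G protein-coupled receptors of the vomeronasal organ in the nose, where sensory neurons use them to detect pheromones and other signals of the same or of other species. Vmn1r receptors are coded by a single exon and act in neurons that signal through the G protein subunit Gnai2. Vmn2r receptors have a long extracellular domain and act in neurons with the subunit Gnao1. The channel Trpc2 carries the current in both kinds of neuron. Each neuron uses very few of the receptors, and the spinal cord is not a tissue known for them. Vmn2r81 is of interest here because it is 1 of the candidates for glucocorticoid-dependent diurnal genes that the study selected on these arrays.

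The array detects each gene with DNA probes of 60 bases, and the sequences of related receptors are often close. Coordinates of probes are those of mm9, and whether a probe lies in a coding exon or a UTR was not looked up here. The probe of Vmn2r81 lies at chr10:78757189-78757248 on the plus strand. Each of its 3 reading frames on this strand holds a TAA, TAG or TGA triplet, so the 60 bases cannot be coding throughout, and only bases 1 to 30 are shown, with such triplets in capitals.
Vmn2r81: gacacccTAAaagtttatatTAAggtgtac
Over all shifts of the probes against each other, no other vomeronasal receptor probe had more than 26 equal bases with it. The probes of Vmn2r98 (chr17:19218199-19218258), Vmn2r99 (chr17:19531477-19531536) and Vmn2r101 (chr17:19749208-19749267), all on the plus strand, are shown because they are close in sequence and were bright on 3 different arrays, where bright means well above background as defined with the counts below. Capitals mark bases that differ from Vmn2r98 or stand beside no base of it.
Vmn2r98: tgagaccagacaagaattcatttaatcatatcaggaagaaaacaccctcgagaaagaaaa
Vmn2r99: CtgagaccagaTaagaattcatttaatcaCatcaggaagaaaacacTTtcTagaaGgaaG
Vmn2r101: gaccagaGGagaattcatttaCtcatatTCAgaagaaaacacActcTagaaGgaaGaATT
Vmn2r98 shared 52 of 59 bases with Vmn2r99 and 47 of 57 with Vmn2r101. Another set holds Vmn2r86 (chr10:129883289-129883348, minus strand), bright on all 4 arrays, beside Vmn2r17 (chr5:109882305-109882364) and Vmn2r16 (chr5:109793412-109793471) on the plus strand, each bright on 1 array. Capitals mark bases that differ from Vmn2r86 or stand beside no base of it.
Vmn2r86: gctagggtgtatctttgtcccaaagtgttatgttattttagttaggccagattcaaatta
Vmn2r17: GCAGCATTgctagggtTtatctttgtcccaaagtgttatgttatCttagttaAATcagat
Vmn2r16: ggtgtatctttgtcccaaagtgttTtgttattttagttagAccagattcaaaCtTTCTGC
Vmn2r86 shared 47 of 52 bases with Vmn2r17 and 51 of 55 with Vmn2r16. The last sequences belong to Vmn1r232 (chr17:21050485-21050544, minus strand), which had the largest lower bound over every other array among the probes bright on 1 array, and to a pair of probes named Vmn2r-ps14 at chr4:147110289-147110348 and chr4:147111809-147111869 on the minus strand.
Vmn1r232: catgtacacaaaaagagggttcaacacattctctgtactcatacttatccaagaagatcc
Vmn2r-ps14, first probe: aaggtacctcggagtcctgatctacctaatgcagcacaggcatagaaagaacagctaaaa
Vmn2r-ps14, second probe: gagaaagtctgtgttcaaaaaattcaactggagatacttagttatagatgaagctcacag

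Most vomeronasal receptor probes stayed near background in all 4 conditions. The image software marks a spot as well above background by comparing it with the background of the same array, and a probe was counted when at least 50% of its spots carried the mark. Of the 300 probes, 38 (12.7%) were well above background in sham+PSL mice at ZT10 and 25 (8.33%) at ZT22. In ADX+PSL mice, 37 (12.3%) were at ZT10 and 30 (10%) at ZT22. The same was true of 68.7%, 66.9%, 70.1% and 65.1% of all probes on these arrays. Between 58.7% and 72.2% of the receptor spots were at background and carried a value the software had put in, against 15.3% to 21.8% of all spots. By class, 7.95% to 12.5% of Vmn1r probes and 8.87% to 15.3% of Vmn2r probes were well above background. In slices of whole tissue, fewer cells that express a gene and less RNA per cell cannot be told apart. Odorant receptors of the main nose (Olfr) gave shares of 6.11% to 12.2%, taste receptors (Tas1r and Tas2r) 15.0% to 17.5%, and none of the 15 probes of trace amine receptors (Taar) was well above background on any array.

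**Figure D1:**
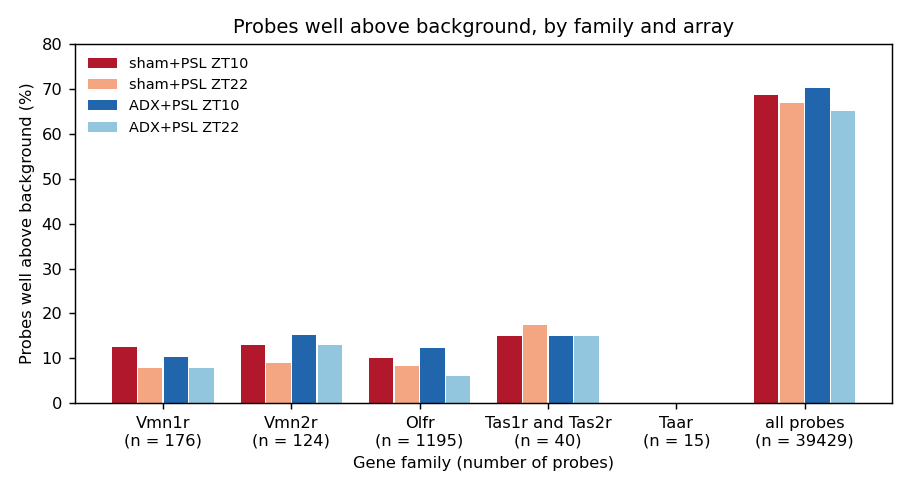
Share of probes well above background (%, from 0) for Vmn1r, Vmn2r, Olfr, taste receptor and Taar probes and for all probes, with 1 bar for each array and no error bar because each condition had 1 array. The bars of the chemosensory receptor families sit between 0 and 17.5%, and those of all probes between 65.1% and 70.1%.

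Among the receptor probes that gave a signal at all, many gave it on a single array. Over the 4 arrays, 244 receptor probes were well above background on none, 24 on exactly 1, 9 on 2, 4 on 3 and 19 on all 4. Thus 56 probes of 52 genes (18.7% of the probes) were well above background on at least 1 array, against 73.2% of all probes. Of these 56 probes, 24 (42.9%) were bright on exactly 1 array, whereas for all probes the share was 6.47% and for Olfr probes 50.7%. As a share of all 300 receptor probes, 24 is 8.0%, beside 4.74% of all probes on the array. In contrast, 63.4% of all probes and 6.33% of the receptor probes were well above background on all 4 arrays.

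The 24 probes bright on exactly 1 array were spread over all 4 conditions. Sham+PSL at ZT10 held 10 of them (3.33% of the receptor probes, against 1.29% of all probes bright on this array only), and sham+PSL at ZT22 held 5 (1.67%, against 0.718%). ADX+PSL at ZT10 held 6 of them (2.0%, against 2.22% of all probes), and ADX+PSL at ZT22 held 3 (1.0%, against 0.515%). So sham+PSL at ZT10 had the most receptor probes of this kind, and none of the 4 arrays lacked them. In contrast, ADX+PSL at ZT10 had the most for Olfr probes (52 of 105) and for all probes (874 of 1867). Levels below are the authors' quantile-normalized intensities in arbitrary units, always in the order sham+PSL ZT10, sham+PSL ZT22, ADX+PSL ZT10, ADX+PSL ZT22, and a level is compared only with levels of the same probe. The lowest level called well above background was 14.9, 18.4, 12.8 and 22.2 on these arrays. Where the dimmer array was not well above background, the higher of this lowest level and the probe's own level took its place and the ratio is given as a lower bound.

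Vmn2r81 had levels of 71.6, 12.8, 3.60 and 7.00, and was well above background in sham+PSL at ZT10 only. Its level there was thus at least 3.89-fold higher than in sham+PSL at ZT22, and at least 3.23-fold higher than on each of the other arrays. With normexp background correction the same bound was 1.76, and with the mean signal taken without background correction it was 1.69. The mean intensity of the spot before background correction was 149.8, 88.6, 75.2 and 79.1 on the 4 arrays, beside a local background of 58, 57, 53 and 58. By a weaker mark of the software, positive and significant against background, Vmn2r81 was also detected on both ZT22 arrays.

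Of the other receptors bright in sham+PSL at ZT10 only, Vmn1r12 had levels of 50.5, 3.58, 3.48 and 3.71. Vmn1r148 had 57.2, 6.52, 7.35 and 3.73. Vmn1r235 had 52.5, 3.61, 3.56 and 6.99. Vmn1r200 had 26.9, 5.52, 3.72 and 3.89, and Vmn1r33 had 65.4, 3.72, 3.87 and 20.1. Only lower bounds can be given for their ratios, since the other arrays were not well above background. Over sham+PSL at ZT22, ZT10 was at least 3.56-fold higher for Vmn1r33, 3.11-fold for Vmn1r148, 2.85-fold for Vmn1r235, 2.74-fold for Vmn1r12 and 1.46-fold for Vmn1r200, all under the bound of Vmn2r81. The other 4 genes, Vmn1r10, Vmn1r168, Vmn2r16 and Vmn2r89, had bright levels between 15.8 and 29.4. For Vmn2r89 the bright level of 15.8 stood beside 15.7 in sham+PSL at ZT22, which was not called well above background.

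The largest lower bound over every other array among the 24 probes was that of Vmn1r232, in sham+PSL at ZT22. Vmn1r232 had levels of 4.78, 103.0, 4.95 and 3.69, so that sham+PSL at ZT22 was at least 6.93-fold higher than sham+PSL at ZT10 and at least 4.64-fold higher than each other array. Its bound was larger than that of Vmn2r81 and had the opposite direction. Vmn1r228 gave 3.59, 43.0, 3.56 and 3.81, Vmn1r16 gave 4.03, 29.7, 4.36 and 4.74, and Vmn2r98 gave 6.40, 22.2, 5.90 and 3.72. In these genes too sham+PSL at ZT22 was the only array well above background. The lower bound over every other array was 1.94-fold for Vmn1r228 and 1.34-fold for Vmn1r16. The bright level of Vmn2r98 was under the lowest level called well above background in ADX+PSL at ZT22, so it has no such bound.

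In ADX+PSL at ZT10, Vmn1r45 stood out with levels of 3.50, 3.53, 46.3 and 3.66, at least 2.09-fold higher than on each other array. Vmn2r101 followed with 3.64, 12.8, 37.3 and 8.15. Vmn2r60, Vmn2r55 and Vmn2r17 had levels between 13.6 and 17.2 on this array, which are under the lowest level called well above background in ADX+PSL at ZT22, so no ratio between these arrays is given for them. In ADX+PSL at ZT22, the genes were Vmn1r189 (3.68, 3.70, 3.61 and 44.2), Vmn2r99 (4.76, 3.79, 4.95 and 26.8) and Vmn2r52 (3.64, 10.63, 5.01 and 28.2). Ordered by rising lowest level called well above background, the arrays were ADX+PSL ZT10, sham+PSL ZT10, sham+PSL ZT22 and ADX+PSL ZT22. In this order the receptor probes bright on 1 array only numbered 6, 10, 5 and 3. Olfr probes of this kind numbered 52, 26, 18 and 9, and all probes 874, 507, 283 and 203. The part of these limits in the counts was not tested. Over all 24 probes, 16 had a level above the lowest well above background on every array, and for 8 of the 24 the lower bound over every other array was at least 2-fold.

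**Figure D2:**
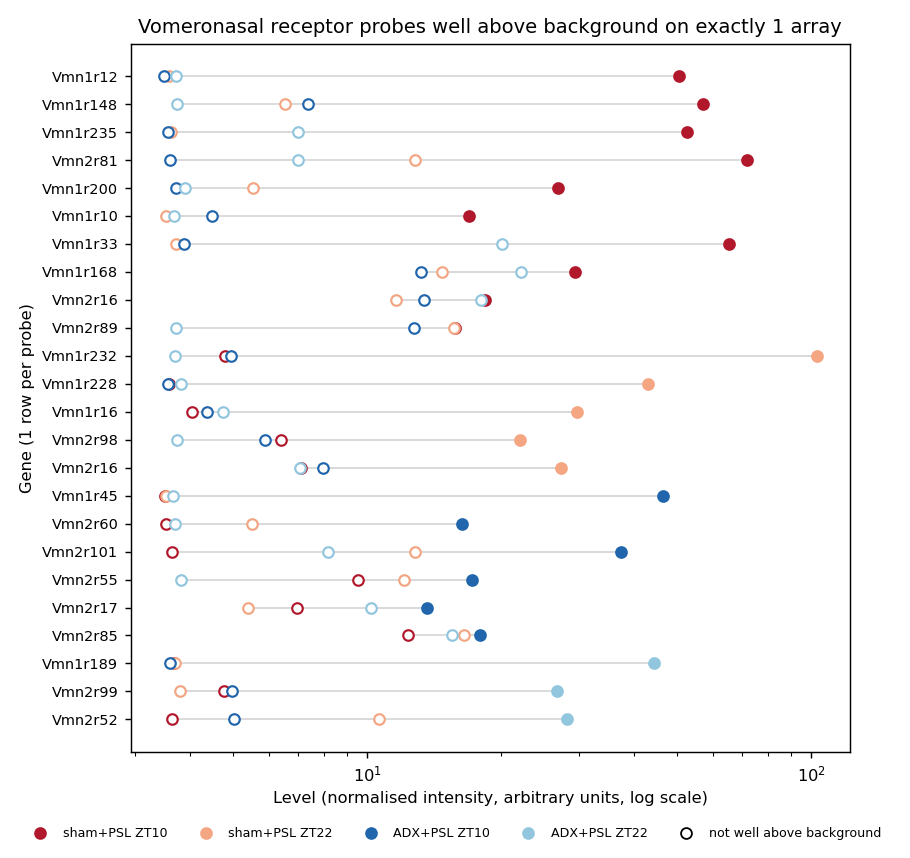
Levels (normalised intensity in arbitrary units, log scale) of the 24 receptor probes well above background on exactly 1 array, with 1 row for each probe, 1 point for each array, filled points well above background and open points not. Within each array's rows, probes are sorted by the ratio to their highest other level. Vmn1r232 reaches 103.0 in sham+PSL at ZT22, and Vmn2r81 reaches 71.6 in sham+PSL at ZT10.

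Where another probe of the same gene was on the array, it did not share the signal. The 24 probes belong to 23 genes, 5 of which have a pair of probes, and Vmn2r81 is not among these 5. For Vmn1r45, the other probe had levels of 4.06, 4.12, 3.98 and 4.16 and was well above background on no array. The same held for Vmn1r168, Vmn2r52 and Vmn2r55, whose other probes had levels between 3.63 and 10.8. Vmn2r16 was bright with one probe in sham+PSL at ZT10 (18.4, 11.6, 13.4 and 18.1) and with the other in sham+PSL at ZT22 (7.11, 27.3, 7.94 and 7.07). Probes of a gene can differ in the transcripts they reach, and this was not tested.

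Of the 24 probes, 18 shared at least 36 bases with another vomeronasal receptor probe, and for 15 of these 18 the nearest probe was well above background on no array. Over the whole family, 194 of the 300 probes (64.7%) had so close a probe and for 154 of these 194 (79.4%) the nearest was well above background on no array. The probes of Vmn2r98 and Vmn2r99 shown above were each bright on another ZT22 array, of sham+PSL and of ADX+PSL, and that of Vmn2r101 on the ADX+PSL array of ZT10. Whether probes this close bind the same RNA, and so which genes lie behind them, was not tested. By base composition, the probes bright on 1 array had a median of 35.0% G and C, those bright on none 36.7% and those bright on all 4 arrays 43.3%, whereas over the whole array these medians were 43.3%, 41.7% and 41.7%.

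The spots behind these signals were also looked at pixel by pixel. The mean of a spot's pixels over their median is near 1 for an even spot and rises when a few pixels are very bright. For the 24 bright spots it ran from 0.975 to 1.12 with a median of 1.02, and for the 76 spots of receptor probes bright on all 4 arrays from 0.970 to 1.07 with a median of 1.01. Vmn2r81 in sham+PSL at ZT10 had the highest value of the 24, 1.12, from a mean of 149.8 and a median of 134.0. Its pixels also varied most, with an SD of 34.5% of their mean, against 16.2% to 19% for the same probe on the other arrays and a median of 21.7% over the 24 spots. Among the 1921 spots of all probes bright on exactly 1 array, 13 (0.677%) had a mean over median at least as high. The software flagged neither this spot nor any other receptor spot as non-uniform. By another of its flags, the software did not find 4 of the 24 spots (16.7%), those of Vmn1r168, Vmn1r16, Vmn2r98 and Vmn1r189, against 275 of the 1921 (14.3%) and 3 of the 76 (3.95%). It did find that of Vmn2r81. The part of uneven pixels in the signal of Vmn2r81 was not tested.

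**Figure D3:**
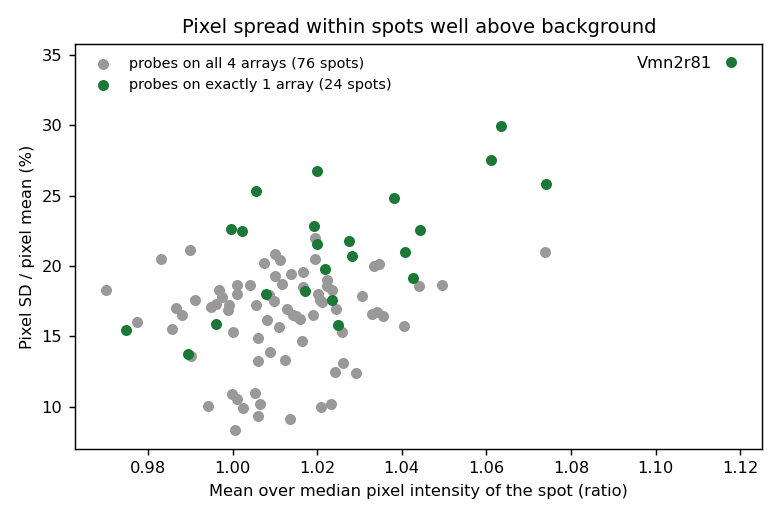
Each point is a spot of a receptor probe well above background, with the ratio of mean to median pixel intensity on the horizontal axis and the SD of its pixels as a percentage of their mean on the vertical axis. Green points are the 24 spots of probes bright on exactly 1 array, and grey points are 76 spots of probes bright on all 4 arrays. The spot of Vmn2r81 lies at the upper right, at 1.12 and 34.5%.

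Replicate spots existed for 3 receptor genes whose probe was printed as 10 spots on every array, Vmn1r233, Vmn1r58 and Vmn1r81. Of these 120 spots, 2 were well above background. In ADX+PSL at ZT22, 1 spot of Vmn1r233 had a mean intensity of 137.1 while the other 9 spots of the same probe lay between 63.1 and 71.1, and the software flagged it as an outlier among its replicates. In ADX+PSL at ZT10, 1 spot of Vmn1r58 reached 100.5 while its other 9 spots lay between 73.2 and 91.4. The intensity of the Vmn1r233 spot is within the range of the bright spots of the 24 probes bright on exactly 1 array (89.5 to 182.6), which were printed once each and could not be compared with a replicate spot. Over all probes printed 10 times, the 380 cases of a probe not well above background on an array gave 188 bright spots among 3800 (4.95%), and 90 of these cases had exactly 1 bright spot of 10.

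**Figure D4:**
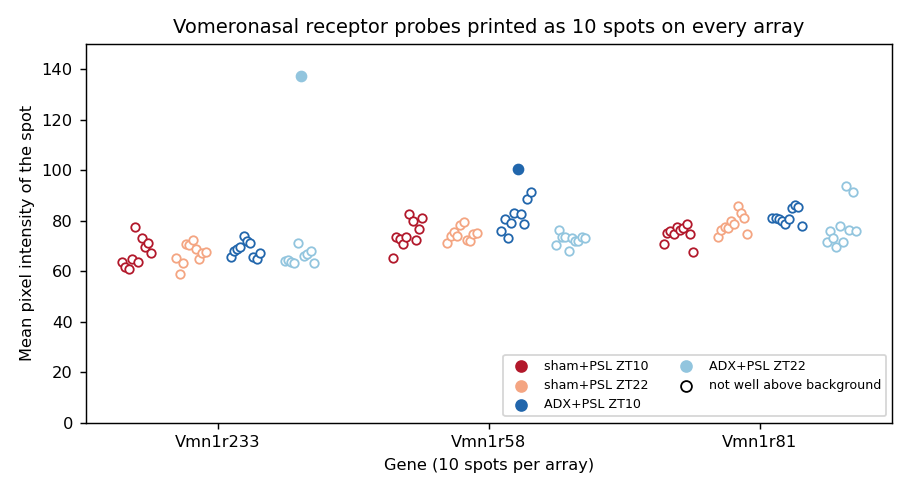
Mean pixel intensity (from 0) of each of the 10 spots of Vmn1r233, Vmn1r58 and Vmn1r81 on each array, with filled points well above background and open points not. The single filled point of Vmn1r233 in ADX+PSL at ZT22 lies at 137.1, above its 9 replicate spots.

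The 9 receptor probes bright on 2 arrays were spread unequally over the pairs of arrays, as all probes were. The genes are named here after their values were seen. Both ADX+PSL arrays and neither sham+PSL array were bright for Vmn1r43 (3.74, 3.89, 25.6 and 37.6), Vmn2r35 and Vmn2r43, 3 probes (1.0%), against 0.246% of all probes. No receptor probe showed the reverse, both sham+PSL arrays only, as 0.314% of all probes did. Both ZT10 arrays only were bright for Vmn1r56, Vmn1r63, Vmn1r69 and Vmn2r121, 4 probes (1.33%), near the 1.43% of all probes. No receptor probe had both ZT22 arrays only, against 0.0659%. For Vmn1r69 the levels were 48.5, 3.66, 28.9 and 3.67. Its level at ZT10 exceeded ZT22 at least 2.64-fold in sham+PSL and at least 1.30-fold in ADX+PSL. The levels of the others were close. Vmn1r56 had 19.6, 16.4, 23.1 and 22.1. Vmn1r63 had 18.7, 16.6, 15.0 and 14.3, with the uncalled level in sham+PSL at ZT22 above the called level in ADX+PSL at ZT10. Vmn2r121 had 19.3, 15.1, 20.8 and 22.7, highest in ADX+PSL at ZT22, where it was not called well above background. The last pair crossed the design. Vmn2r118 (109.9, 3.59, 3.46 and 60.6) was bright on the ZT10 array of sham+PSL and the ZT22 array of ADX+PSL (0.333%, against 0.0735% of all probes). Vmn1r216 was bright on the ZT22 array of sham+PSL and the ZT10 array of ADX+PSL (0.333%, against 0.457%). Its levels, 16.2, 22.2, 25.5 and 20.8, were close, with the highest only 1.58 times the lowest.

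The study's question was which genes rose at the glucocorticoid peak in sham+PSL mice and not in ADX+PSL mice. The limits applied here, after its methods, were a ratio of at least 2 together with a Z-score of at least 2 among the log2 ratios of all probes, with the brighter array well above background. The ratios were those of the levels themselves, not the lower bounds given above, also where the dimmer array was not well above background. By these limits, 9 receptor probes (3.0%) had a higher level at ZT10 in the sham+PSL pair, against 1.54% of all probes, and 5 (1.67%) were lower, against 1.42%. In ADX+PSL, 5 (1.67%) were higher, against 1.46%, and 5 (1.67%) were lower, against 1.17%. For the Olfr probes the shares were 2.09% and 2.18% in sham+PSL and 2.51% and 0.921% in ADX+PSL. These 24 calls fell on 22 probes. For 21 of the 22, a dimmer array was not well above background, and the exception was Vmn2r46 in ADX+PSL, with 17.2, 10.05, 15.0 and 47.2. Among all probes called, a dimmer array was not well above background for 77.9% of those higher and 64.0% of those lower in sham+PSL, and for 83.8% and 55.5% in ADX+PSL, so this was common on the whole array.

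The study selected its candidates by 3 criteria, and how its limits entered each of them is not fully stated in the sources used here. They were read here as the upper limits between the sham+PSL arrays, neither limit between the ADX+PSL arrays, and a lower mean level in ADX+PSL. The study's list also holds genes with a sham+PSL ratio under 2, so this reading is not the same as the study's. The genes that meet it need not be those the study selected. With sham+PSL at ZT10 as the high array, 7 receptor probes met them (2.33%), against 1.13% of all probes: Vmn2r81, Vmn1r10, Vmn1r12, Vmn1r33, Vmn1r148, Vmn1r200 and Vmn1r235. None of the 7 was well above background on a second array. As lower bounds over sham+PSL at ZT22, Vmn1r200 reached only 1.46-fold and Vmn1r10 had none, while the others lay between 2.74-fold and 3.89-fold. With the same criteria turned to each other array, 5 receptor probes (1.67%) had sham+PSL at ZT22 as the high array, against 0.964% of all probes. These were Vmn1r16, Vmn1r228, Vmn1r232, Vmn2r16 and Vmn2r98. For ADX+PSL at ZT10 there were 3 (1.0%), Vmn1r45, Vmn2r60 and Vmn2r101, against 0.959%. For ADX+PSL at ZT22 there were 4 (1.33%), Vmn1r189, Vmn2r46, Vmn2r52 and Vmn2r99, against 0.746%. Lower bounds over the other array of the same operation were under 2-fold for Vmn1r16 (1.99), Vmn2r16 (1.84), Vmn2r98 (1.49) and Vmn2r101 (1.68). Vmn2r60 had none. So each array, taken as the high one, had its receptor genes, and 18 of these 19 probes were the ones bright on exactly 1 array. For Olfr probes the shares in the same order were 1.84%, 1.67%, 2.18% and 0.753%. When both arrays of a ratio had to be well above background, no receptor probe met the criteria for sham+PSL at ZT10. With normexp background correction 1 probe did, and without background correction 1, and Vmn2r81 was in neither set.

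The promoter of Vmn2r81 was read for the binding motif of the glucocorticoid receptor, since the gene was selected as a candidate target. The 250 bases before its start in RefSeq (GRCm38.p6, chr10:79247527-79247776, plus strand) are shown with matches to the hexamer AGAACA, a piece of that motif, on either strand, in capitals, of which there were none.
Vmn2r81 upstream window: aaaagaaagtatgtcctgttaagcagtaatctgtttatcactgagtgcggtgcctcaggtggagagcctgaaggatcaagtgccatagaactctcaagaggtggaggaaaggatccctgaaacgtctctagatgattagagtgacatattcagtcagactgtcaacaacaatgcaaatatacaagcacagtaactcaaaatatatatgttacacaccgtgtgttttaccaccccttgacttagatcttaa
The full motif, AGAACA followed after any 3 bases by TGTTCT, which reads the same on both strands and contains the hexamer, was not in the window either. Of the 32851 upstream windows of this length in the table, 3 held the full motif and 16.1% held the hexamer, and among the 228 receptor genes with a window 28.9% held the hexamer. These are matches of letters in a short window and say nothing of binding or of sequence farther upstream. In the study's list of candidates, Vmn2r81 also has no such element, and the element listed for Sgk-1 lies farther upstream than this window reaches.

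Receptor probes that were bright everywhere differed between conditions about as much as other such probes on the array. The 19 probes of this kind, well above background on each of the 4 arrays, belong to 16 genes, and 18 of them had a highest level less than 2-fold above their lowest (94.7%, against 95.1% of all probes bright on all 4 arrays), with a median ratio of 1.27, beside 1.23 for those probes. None of the 19 differed 2-fold between ZT10 and ZT22 in either operation, against 1.73% of such probes in sham+PSL and 1.28% in ADX+PSL. Vmn1r204 was the steadiest, with 41.5, 40.5, 42.1 and 40.4. The bright probe of Vmn2r3 followed with 64.4, 60.9, 70.4 and 63.8, and 1 probe of Vmn2r88 with 101.0, 105.3, 117.1 and 117.1. Vmn1r70 had 157.9, 173.5, 146.1 and 169.9. For these genes the ratio of highest to lowest level was between 1.04 and 1.19.

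At the other end, Vmn1r87 had levels of 75.5, 147.4, 103.3 and 170.5, lower at ZT10 in both operations, with log2 ratios of ZT10 to ZT22 of -0.97 and -0.72, which passed neither limit. Vmn1r65 had 343.4, 440.1, 571.5 and 617.8, with both ADX+PSL arrays above both sham+PSL arrays. The other probe of Vmn2r88 had 33.5, 24.4, 41.1 and 45.5. The bright probe of Vmn2r10 had 25.8, 24.6, 27.0 and 38.0. With 1 array in each condition, these differences cannot be set against a spread between mice.

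A receptor name on the array carries another symbol in RefSeq. All 3 probes named Vmn2r-ps14, a name for a vomeronasal receptor pseudogene, were well above background on all 4 arrays, at 753.9, 876.7, 776.7 and 788.7 for the first sequence shown, at 846.0, 978.5, 934.9 and 816.1 for the second, and at 89.6, 79.7, 82.4 and 129.9 for the third probe. Their transcript accession is listed in RefSeq (GRCm38.p6) under the symbol Smarca5-ps, a pseudogene of the chromatin remodeller Smarca5. Accessions of 289 of the 300 probes were found in RefSeq, and for 6 of these the symbol there differed from the array's, the other 3 being names with a pseudogene suffix that RefSeq lists without it. Of the 300 probes, 69 list more than 1 RefSeq transcript, as do 14 of the 56 that were well above background on some array, such as Vmn2r4, Vmn2r86 and 1 of the Vmn2r88 probes, and the signal of these may come from several genes.

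**Figure D5:**
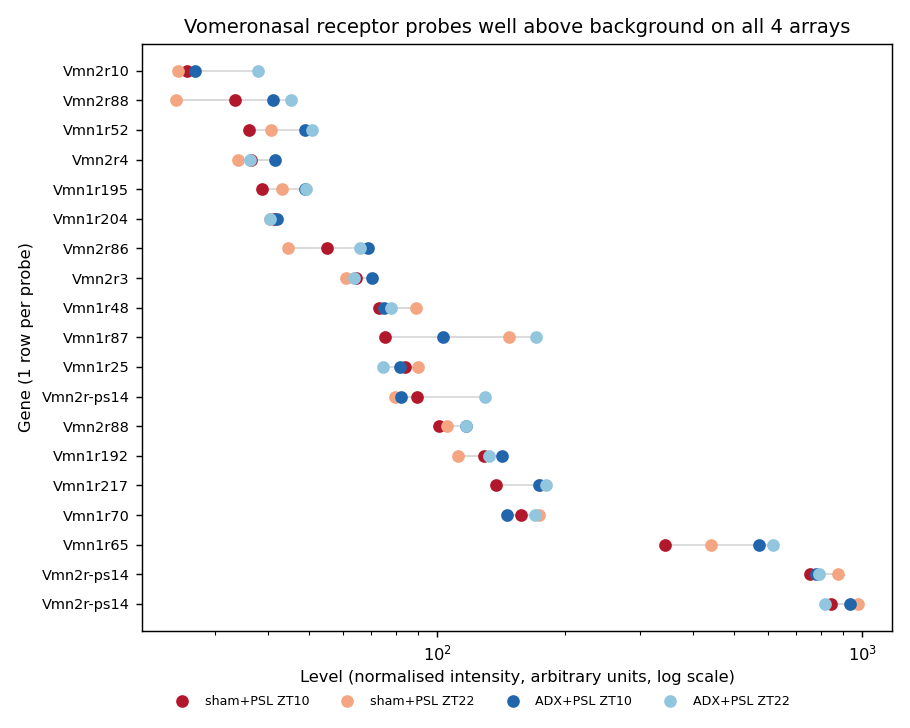
Levels (normalised intensity in arbitrary units, log scale) of the 19 receptor probes well above background on all 4 arrays, with 1 row for each probe, 1 point for each array and no error bar because each condition had 1 array. Rows are sorted by the level in sham+PSL at ZT10. The points of most rows lie close together, and Vmn1r87 has the widest row, from 75.5 to 170.5.

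The genes through which these receptors signal were partly well above background, as was common over the whole array. Of 8 signalling genes of vomeronasal neurons, 6 were well above background on all 4 arrays, beside 63.4% of all probes. Plcb2, a phospholipase, and Ano2, a chloride channel, were so on none. Gnai2 (11862, 16287, 13742 and 15529) and Gnao1 (10389, 9879, 10182 and 10098 for 1 of its probes) are G protein subunits used widely in the nervous system. Trpc2 was well above background with all 3 of its probes, at 316.8, 328.2, 327.4 and 334.9 for 1 of them, and in RefSeq it overlaps a neighbouring gene, Xndc1. Omp, a marker of olfactory neurons, had 86.6, 90.5, 99.1 and 103.1, Gng8, a G protein gamma subunit, 763.4, 1081, 708.7 and 833.4, and the chloride channel Ano1 510.8, 469.9, 605.0 and 510.4.

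Class I molecules that accompany Vmn2r receptors were mostly near background. Of 9 such genes measured, B2m included, 7 were well above background on no array, beside 26.8% of all probes. H2-M11 was at 44.6, 43.2, 50.6 and 57.0, and B2m itself, the light chain of all class I molecules, at 7211, 10092, 6797 and 7167. The 3 vomeronasal formyl peptide receptors measured, Fpr-rs3, Fpr-rs4 and Fpr-rs6, were well above background on no array. Gnal, Adcy3 and Cnga2, which carry the signal of the main olfactory neurons, were well above background on all 4 arrays, Cnga2 at 93.4, 158.7, 108.0 and 90.8. No probe of any of these pathway genes passed the limits between ZT10 and ZT22 in either operation. Of all probes, only 1.17% to 1.54% did so in each direction and operation, so a list this short would hold few.

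All 11 spinal cord markers, such as Gfap, Mbp and Hoxc10, were well above background on all 4 arrays, as were 63.4% of all probes. The 3 markers of vomeronasal sensory neurons, Trpc2, Omp and Gng8, were so too, and this mark alone does not tell the tissues apart. Other cell types differed between the arrays. The summed level of 10 fast muscle probes was 2849 on the sham+PSL array of ZT10 and between 267.5 and 380.5 on the other arrays. Of these probes 6 passed the upper limits at ZT10 in sham+PSL, with Myh4, a muscle myosin, well above background on that array only. The summed level of 6 red blood cell probes was 135912 at ZT10 and 18767 at ZT22 in sham+PSL. In ADX+PSL it lay between 89810 and 95075, and all 6 passed the upper limits at ZT10 in sham+PSL alone. Of 6 meningeal fibroblast probes 1 was higher at ZT10, and their summed level was 18081 and 13861 in sham+PSL and 5012 and 5514 in ADX+PSL. Testis markers, of which Prm1, Prm2 and Tnp1 were well above background and Acrv1 was not, summed to between 149.5 and 172.7. The part of these tissues in the receptor signals of sham+PSL at ZT10 was not tested. Of 153 negative control spots, which match no mouse gene, between 1 and 3 per array were well above background.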

How the data were processed

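Total RNA was labelled with Cy3 and hybridized to Agilent 44K 60-mer arrays, 1 for each of 4 conditions, all on 1 slide. The authors deposited spot intensities and flags from Feature Extraction (10.7.1.1 per the file headers, 9.5.1.1 per the submitters' processing notes) and a table of quantile-normalized intensities on the linear scale, which gave the levels. Of the 44397 spots of an array, 1377 were controls. The flag for spots well above background was set with a multiplier of 13 per the file headers. The table had a median of 105.5 on every array and correlated with the log2 processed signal at r between 0.9994 and 0.9999. Z-scores were log2 ratios minus their mean, divided by their SD, over 39429 probes. Sequence likeness was the number of equal bases over all shifts with at least 40 bases side by side. Analyses used Python 3.11.15, pandas 2.3.3, R 4.3.3 and limma 3.58.1, and steps were tested on simulated data.

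Named were Vmn2r81, per array the 5 probes bright on it alone with the largest ratio to their highest other level, probes meeting the criteria, the 5 steadiest and 5 most variable of those bright on all arrays, and listed pathway genes. Members and lists were chosen with earlier results of these data known. There was no replicate array, so no test between conditions was made, and precision is limited by the number of arrays. Alternatives were other detection marks, normalizations, background corrections, filters and limits.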

Additional observations from a re-analysis of the deposited data

Results flagged for a closer look

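Vmn2r118, a Vmn2r receptor, had opposite time differences in the operations. In sham+PSL its level was at least 5.97-fold higher at ZT10 (109.9 against 3.59), and in ADX+PSL at least 4.73-fold higher at ZT22 (60.6 against 3.46). The difference between the operations was not tested, as each condition had 1 array. Of the 300 receptor probes, 22 passed the limits in either operation and 2 in both, Vmn1r69 in the same direction and Vmn2r118 in opposite directions. Of all 39429 probes, 2021 passed in either operation and 185 in both, 105 in the same and 80 in opposite directions. Counts of 1 receptor probe each are too small to set the family apart from all probes.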

How the results depend on the processing

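With the positive and significant mark, 156 in place of 56 receptor probes were detected on at least 1 array (52.0%, against 88.7% of all probes). On exactly 1 array, 45 in place of 24 were detected (15.0%, against 5.94%), Vmn2r81 not among the 45. With the 99th percentile of the negative controls as the limit, 42 were detected on exactly 1 array (14.0%, against 7.63% of all probes). The calls in ADX+PSL were then 3 higher and 3 lower in place of 5 each. Calls are given next as higher and lower at ZT10 in sham+PSL, then in ADX+PSL, where the reported counts were 9, 5, 5 and 5. With normexp background correction they were 2, 1, 0 and 1, and without background correction 1, 1, 0 and 0. With both arrays well above background they were 0, 0, 0 and 1. With Z-scores within 20 intensity bins, 3 were lower in sham+PSL, and 2 higher and 3 lower in ADX+PSL. With the positive and significant mark, 12 were lower in sham+PSL, and 18 higher and 13 lower in ADX+PSL, and the same counts came without a background filter. The 3 criteria for sham+PSL at ZT10 were met by 1, 1 and 0 probes in place of 7 with normexp, without background correction and with both arrays well above background, and the bound of Vmn2r81 was 1.76 and 1.69 in place of 3.89 under the first pair of these. Subtracting less background lowers ratios of dim spots by construction. Under the 4 normalizations that kept the software's background correction, Vmn2r81 and the other 6 probes met the criteria. Of 77 results recomputed, 46 stayed within 1.5 times the reported count or within the spot error of Vmn2r81 (10.9%). The labels give no replicate numbers, so there was no replicate block, and an additive fit of operation and time, which would leave 1 residual degree of freedom, was not made. Signals this near to background limit every comparison here.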
